A study of Rattus norvegicus with 10 samples.

Results

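Membrane fusion and endosomal sorting genes were examined in rat resident peritoneal macrophages with and without prior uptake of myelin. The members were all probe sets with a single gene symbol that begins with Stx, Stxbp, Vamp, Snap, Vps or Chmp followed by a digit, or that is Nsf, Napa, Napb, Napg, Vti1a, Vti1b, Ykt6 or Sec22b. This rule used names and no measured value, but it was chosen with earlier results of these data known. It gave 126 probe sets of 80 genes, out of 31042 probe sets tested and 14217 genes with a probe set of their own. Affymetrix rat genome arrays had been hybridized with RNA of 5 control macrophage samples and 5 mye-macrophage samples. All cells came from rats of the strain Hsdcpb:WU, were obtained by peritoneal lavage and were kept by adherence, and the labels give no genetic change and no age. Mye-macrophages received 100 µg/ml of myelin purified from brain for 3 days, control macrophages were left without it for the same time, and both groups then received the cytokines IFNγ and IL-1β (100 ng/ml, 9 hours). Every value described below is therefore one of cytokine-stimulated cells, with no unstimulated sample beside it.

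SNARE proteins sit on vesicles and on their target membranes and draw the membranes together by winding into a bundle of helices. Syntaxins and SNAP-25 family proteins supply the Q-SNAREs, VAMPs supply most R-SNAREs, and Sec1/Munc18 proteins guide their pairing, after which the ATPase NSF and its SNAP adaptors pull the used bundle apart so that its parts can act again. The HOPS and CORVET complexes tether endosomes and lysosomes, retromer, retriever and GARP return cargo from endosomes, and ESCRT proteins pinch vesicles into the lumen of late endosomes and reseal damaged membranes. In macrophages this machinery carries phagosomes to lysosomes, delivers membrane to the phagocytic cup and releases cytokines.

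Values are log2 expression values, so a difference of 1 is a doubling, and the median of all values on the arrays was 2.32. Of the 126 member probe sets, 97 (77%) had a mean above that median, against 49.9% of all probe sets. Groups were compared with limma with the replicate number of the labels as a block, and p-values were adjusted over the more variable 15521 probe sets (by interquartile range), which held 68 of the members (54%, beside 50% of all probe sets). The other 58 members received an unadjusted p only. The p-values of this fit set the group difference against the spread left between samples once the replicate numbers are taken out. Neither the animals behind the samples nor the meaning of the replicate numbers is given in the labels, so that spread may be technical. In such bulk RNA, fewer cells of a type and less RNA per cell cannot be told apart. Of the macrophage markers, 9 of the 10 measured lay above the median of all values, Cd163 being the exception. Their summed level (log2 of the summed signal of each gene's brightest probe set) ranged from 13.15 to 13.58 in control and from 13.25 to 13.70 in mye-macrophages. Of the 24 probe sets of oligodendrocyte and myelin markers, 3 passed the test, all higher in mye-macrophages. The median log2 fold change of that list, over the brightest probe set of each gene, was 0.08. Cnp (0.05 and 0.08), Mal (-0.14) and Mog (0.13) were not among those that passed. Of the 3 probe sets of Mbp, 1 was higher in mye-macrophages (log2 fold change 3.37) and the others had -0.20 and -0.04, and of the 3 of Mobp, 1 was higher (3.60) and the others had 0.12 and 0.01. Bcas1 was higher by 1.76. The summed level of that list was 7.53 to 7.82 against 7.85 to 8.21, in which Mbp entered with the set that had -0.20. Of the list's 14 measured genes 8, among them Sox10, Mag and Olig2, lay below the median of all values. Of 12 neuron markers 3 lay above it (Syp, Tubb3 and Eno2), none passed the test, and the summed levels overlapped (6.39 to 7.72 against 6.76 to 8.18). Astrocyte markers had 2 of 7 above it, with 1 of 3 probe sets of Slc1a3 higher in mye-macrophages (summed level 4.54 to 5.72 against 4.58 to 6.15). T, B and NK cell markers had 3 of 8 above it (5.24 to 5.50 against 5.04 to 5.82), mast cell and granulocyte markers 3 of 8 (4.71 to 8.48 against 4.80 to 8.56) and mesothelial and fibroblast markers 2 of 7 (4.46 to 6.53 against 4.36 to 6.57), and no gene of these 3 lists passed. Marker probe sets outside the variance filter, such as that of Mog, had no adjusted p and could not pass. The part of these other cell types in the values of the members was not tested.

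Nsf was the only member with a probe set past the threshold, and it was lower in mye-macrophages. Among the 68 member probe sets with an adjusted p, 1 (1.47%) was lower and 0 were higher, while over all 15521 probe sets 2.69% passed, 1.9% lower and 0.792% higher. The share of members that passed was thus no larger than that of the array as a whole. At an unadjusted p under 0.05 the limma fit gave 19 of 126 members (15.1%), against 12.1% of all probe sets. Of these, 11 had a negative difference (8.73%, against 6.62% of all) and 8 a positive one (6.35%, against 5.51%). Over all member probe sets 52 of the differences were negative (41.3%, against 48.4% of all). The median log2 fold change of the members was 0.03, beside 0.00 over all probe sets, and single values ran from -0.46 for Nsf to 0.28 for Vamp5. The 95% confidence interval of the difference lay inside a 1.5-fold change in either direction for 122 of 126 member probe sets (96.8%, beside 96.7% of all probe sets), and inside a 1.25-fold change for 87 (69%, beside 70.1%). The 4 probe sets that reached beyond 1.5-fold were 1369690_at and 1369689_at of Nsf, the single set of Stx17 and set 1369568_at of Stx6.

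**Figure D1:**
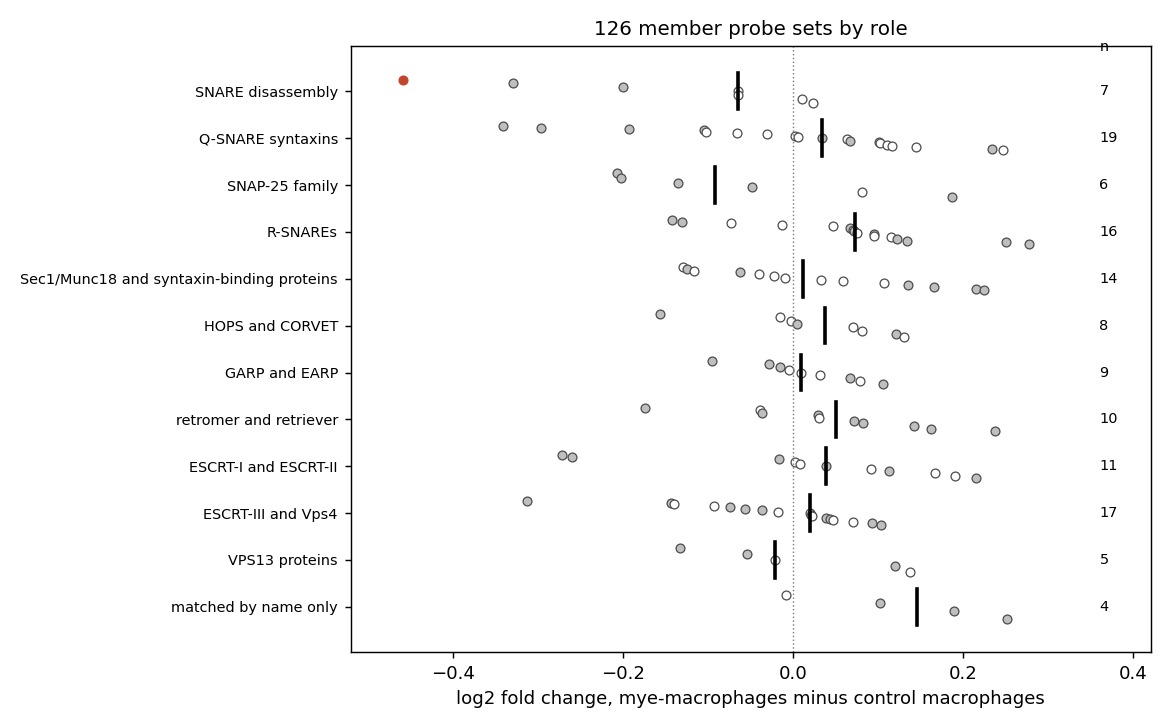
Log2 fold change (mye-macrophages minus control macrophages, limma with the replicate number as a block) of all 126 member probe sets by role, 1 point per probe set. The red point marks the probe set of Nsf past the threshold, grey points the other probe sets with an adjusted p, white points those outside the variance filter, black bars the median of each role and the numbers at the right the probe sets per role; all medians lie between -0.09 and 0.15.

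NSF, the ATPase that takes SNARE bundles apart, was read by 3 probe sets that did not give the same answer. Probe set 1369690_at read 4.93, 4.67, 4.80, 4.50 and 4.81 in control replicates 1 to 5 and 4.20, 4.21, 4.44, 4.16 and 4.40 in mye-macrophage replicates 1 to 5. Every mye-macrophage sample lay below every control sample, which among all members was true of this probe set only (0.794% of members, beside 0.283% of all probe sets for groups apart in that direction and 0.734% for either direction). The log2 fold change was -0.46 (SE 0.08, 95% confidence interval -0.63 to -0.29, n = 5 pairs, limma adjusted p = 0.0227), a fall to 0.728 of the control level. An exact two-sided permutation test of the 10 samples gave p = 0.00794, the smallest that 5 against 5 samples allow. Groups that do not overlap always give this value, so the test adds nothing to that statement. It was not adjusted over probe sets and did not use the replicate numbers.

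The call of Nsf was lost without the block and without any one of replicates 1, 2, 4 and 5, and it was kept without the variance filter (limma adjusted p = 0.0455). With no replicate block the limma adjusted p was 0.469 at the same fold change (7 members, or 5.56%, and 4.46% of all probe sets then had an unadjusted p under 0.05), and with the number as a random effect it was 0.0631. Leaving out replicate 1, 2, 4 or 5 gave limma adjusted p-values of 0.0695, 0.0734, 0.0609 and 0.0752, and leaving out replicate 3 gave 0.0237, with fold changes from -0.49 to -0.39. A sign-flip test of 5 pairs cannot go below 0.0625.

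Probe set 1369689_at of Nsf read 3.46, 3.41, 3.04, 3.00 and 3.30 in control macrophages and 2.59, 2.89, 3.30, 3.00 and 2.77 in mye-macrophages. The groups overlapped, mye-macrophages lay below control in 3 of 5 pairs, and the difference of -0.33 (SE 0.15) did not pass (limma adjusted p = 0.243). The third probe set, 1372528_at, read 5.74, 5.78, 5.64, 5.56 and 5.76 against 5.80, 5.52, 5.74, 5.59 and 5.89. It showed no difference (0.01, 95% confidence interval -0.16 to 0.18), an interval that does not overlap that of 1369690_at. Within each array, the value of 1369690_at minus that of 1372528_at was lower in mye-macrophages in 5 of 5 pairs, by -0.47 on average (exact permutation p = 0.00794). This comparison was chosen after the values were seen and was 1 of 27 like it over 20 genes, for which the smallest adjusted permutation p was 0.214, and the files do not say which part of the transcript each probe set reads.

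RNA quality was read from beta-actin, whose probe sets at the 3 prime and 5 prime ends of the transcript draw apart when RNA is broken or copied incompletely. The gap was 3.02 ± 0.30 (SD, n = 5) in control macrophages and 3.30 ± 0.32 in mye-macrophages, a difference of 0.27 that did not pass (exact permutation p = 0.190) and was 0.13 without replicate 1. By pair the gap changed by 0.82, 0.45, -0.21, 0.00 and 0.29 in replicates 1 to 5, and 1369690_at of Nsf changed by -0.72, -0.46, -0.36, -0.34 and -0.41. The pair with the widest change in the gap thus also had the largest fall of Nsf. In pairs 3 and 4, where the gap did not widen, Nsf fell too, and these were its smallest falls (-0.36 and -0.34). With the gap as a covariate the fold change of Nsf was -0.36 and its limma adjusted p was 0.168. The part of RNA quality in the fall of Nsf was not tested further.

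**Figure D2:**
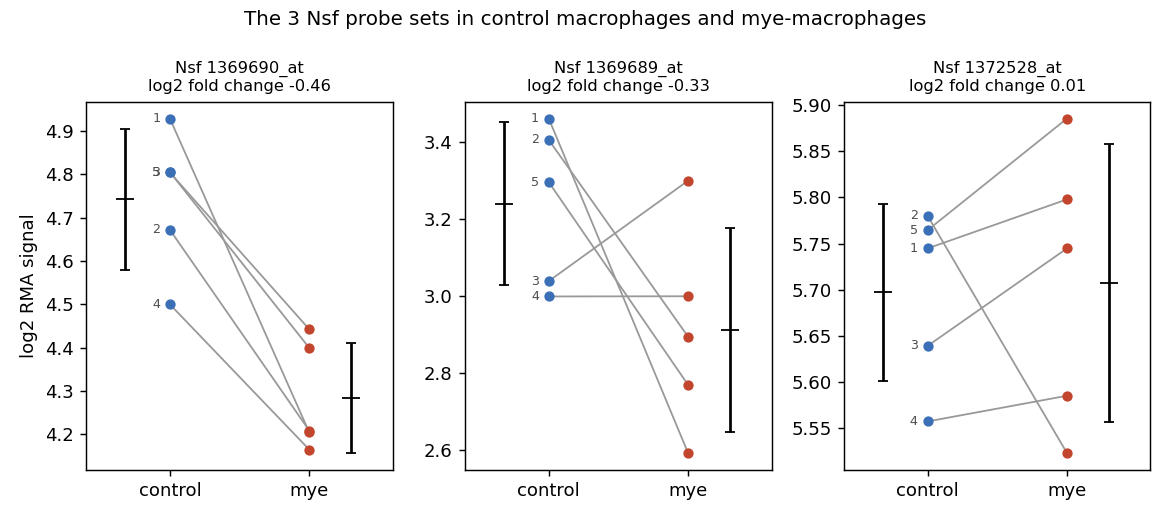
Log2 expression of the 3 probe sets of Nsf in each sample, control macrophages at the left and mye-macrophages at the right of each panel, with lines joining samples of the same replicate number and black bars for the mean ± SD of 5 samples. In 1369690_at all 5 lines fall, in 1369689_at 3 of 5 fall, and in 1372528_at the means differ by 0.01; the vertical axes differ between panels.

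The sequence before a gene's start was looked at for the members whose difference passed the test in the blocked comparison, with the usual variance prior (Nsf) or with a prior that follows the mean and resists outlying probe sets (Nsf, Snap23, Stx7 and Vps29, described below). The 4 windows are the 250 bases before the RefSeq start of each gene in the build GRCr8, on the strand of the gene, 5′ to 3′. Capitals mark CACGTG, the palindromic core letters that the lysosomal regulators TFEB, TFE3 and MITF are known to read, as are MYC and USF. Nsf lies on the minus strand at chr10:89357384-89357633, Snap23 on the plus strand at chr3:127967636-127967885, Stx7 on the minus strand at chr1:23056466-23056715 and Vps29 on the minus strand at chr12:39878733-39878982.
Nsf: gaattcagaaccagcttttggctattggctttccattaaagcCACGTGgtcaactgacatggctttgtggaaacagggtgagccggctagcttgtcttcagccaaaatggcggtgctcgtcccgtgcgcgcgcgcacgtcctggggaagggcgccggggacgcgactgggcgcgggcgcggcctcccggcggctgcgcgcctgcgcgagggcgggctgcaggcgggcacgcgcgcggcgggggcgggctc
Snap23: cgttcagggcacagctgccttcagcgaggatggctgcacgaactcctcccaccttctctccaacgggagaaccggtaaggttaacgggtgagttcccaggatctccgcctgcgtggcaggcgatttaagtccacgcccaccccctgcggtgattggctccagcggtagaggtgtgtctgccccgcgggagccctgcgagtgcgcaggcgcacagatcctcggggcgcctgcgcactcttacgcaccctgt
Stx7: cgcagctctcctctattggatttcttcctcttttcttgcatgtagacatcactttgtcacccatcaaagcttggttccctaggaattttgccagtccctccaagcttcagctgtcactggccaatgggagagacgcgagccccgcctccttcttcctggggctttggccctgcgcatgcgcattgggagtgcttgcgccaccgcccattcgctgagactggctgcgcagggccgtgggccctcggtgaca
Vps29: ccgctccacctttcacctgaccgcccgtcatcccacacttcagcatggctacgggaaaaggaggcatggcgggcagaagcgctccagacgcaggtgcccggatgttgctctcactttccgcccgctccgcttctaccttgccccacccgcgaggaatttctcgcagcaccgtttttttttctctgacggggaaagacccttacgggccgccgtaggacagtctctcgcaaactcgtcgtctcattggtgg

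The window of Nsf holds CACGTG once, with its first base 208 bases before the start, and the windows of Snap23, Stx7 and Vps29 do not hold these letters. RefSeq gave a window for 67 of the 80 genes, in 70 entries. The other 13 genes were Chmp1b, Chmp4c, Chmp6, Chmp7, Snap25, Snap91, Vamp3, Vamp7, Vps13b, Vps13d, Vps28, Vps35l and Vps37a. CACGTG was in 12 of the 70 windows (17.1%), those of Napa, Nsf, Snap29, Stx6, Stxbp2, Vps11, Vps16, Vps26a, Vps26c, Vps33a, Vps37b and Vps50, and in 5.59% of all 33469 windows (6.16% of the 21842 windows of protein-coding genes). A run of letters is not a bound site, and nothing about these factors was measured. Nsf was the only member that passed the test, so it had to be the only one of these 12 genes, which says nothing about the letters.

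Of the SNAP adaptors that bind NSF to SNARE bundles, only Napb had an adjusted p, and it did not pass the test. Napa and both sets of Napg were outside the variance filter and could not pass. Napa (alpha-SNAP) read 7.32, 7.63, 7.24, 7.17 and 7.34 in control macrophages and 7.21, 7.55, 7.18, 7.16 and 7.28 in mye-macrophages, below its control in 5 of 5 pairs by 0.01 to 0.11, which is less than the spread within either group. Napb (beta-SNAP, best known from brain) read 3.00, 3.68, 3.04, 2.20 and 3.35 against 2.83, 3.55, 2.94, 1.83 and 3.12. It too lay below its control in 5 of 5 pairs, with a log2 fold change of -0.20 (limma adjusted p = 0.154), while the replicate numbers took up 95.8% of its sum of squares. The 2 probe sets of Napg (gamma-SNAP) had differences of -0.06 and 0.02.

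Among the SNAP-25 family, Snap23 is the form of non-neuronal cells, where it serves phagocytosis and secretion at the plasma membrane. Its probe set 1370194_at read 7.96, 8.07, 7.62, 7.38 and 7.72 in control macrophages and 7.70, 7.92, 7.42, 7.07 and 7.64 in mye-macrophages. Its probe set 1370195_at read 8.46, 8.42, 8.22, 7.83 and 8.28 against 8.03, 8.13, 8.05, 7.78 and 8.19. Both lay below control in 5 of 5 pairs with overlapping groups, and their log2 fold changes were -0.20 (SE 0.07) and -0.21 (SE 0.08) with limma adjusted p-values of 0.141 and 0.175. With eBayes set to trend and robust, 1370194_at passed (limma adjusted p = 0.0373). Snap29, which pairs with Stx17 in the fusion of autophagosomes, had differences of -0.14, -0.05 and 0.08 in 3 probe sets. Snap25, the neuronal form, had a difference of 0.19 (limma adjusted p = 0.444) and a mean below the median of all values.

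Syntaxins, vti1 proteins included, were read by 19 probe sets of 14 genes, whose median log2 fold change was 0.03. Only 7 of these sets had an adjusted p, and none of the 7 passed the test. Stx7, the syntaxin of late endosomes and phagosomes, read 8.88, 8.62, 8.48, 8.61 and 8.71 in control macrophages and 8.91, 9.11, 8.76, 8.65 and 9.04 in mye-macrophages. It lay above control in 5 of 5 pairs, by 0.03 to 0.49, with overlapping groups (log2 fold change 0.23, SE 0.08, limma adjusted p = 0.166, and 0.0438 with trend and robust). Its late endosomal partners Stx8 and Vti1b had differences of 0.10 and 0.12 and lay above control in 5 and 3 of 5 pairs.

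Stx3, a syntaxin of the plasma membrane and of secretory granules, read 8.38, 8.06, 8.41, 8.39 and 8.14 in control macrophages and 8.60, 8.55, 8.50, 8.57 and 8.39 in mye-macrophages with probe set 1390447_at. Only mye-macrophage replicate 5 fell inside the control range. The difference of 0.25 (SE 0.08, 95% confidence interval 0.08 to 0.41) was the same in sign in 5 of 5 pairs, but the probe set was outside the variance filter, and over all 31042 probe sets its limma adjusted p was 0.224. The other probe set of Stx3, 1369308_at, had a difference of -0.11 (95% confidence interval -0.34 to 0.13). Stx4, which works with Snap23 at the plasma membrane, had a difference of 0.14, Stx11, a syntaxin of immune cell granules, one of 0.06, and Stx6 of the trans-Golgi and early endosomes -0.10 and -0.19 in 2 probe sets. Of the sets of Stx4, Stx11 and Stx6, only 1369568_at of Stx6 had an adjusted p. Neither it nor 1369308_at of Stx3 passed.

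Stx17, the syntaxin of finished autophagosomes, read 1.77, 2.12, 1.98, 1.68 and 1.79 in control macrophages and 1.77, 1.43, 1.32, 1.44 and 1.68 in mye-macrophages. All these values lay below the median of all values on the arrays, the first pair was level and mye-macrophages lay below control in the other 4, and the difference of -0.34 (SE 0.11) did not pass (limma adjusted p = 0.135). Stx5 of the Golgi gave -0.30 (limma adjusted p = 0.192) with probe set 1386853_s_at, whose suffix marks probes shared between transcripts, and -0.03 with 1367878_at.

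Of the 16 R-SNARE probe sets 12 had a positive difference (75%, beside 51.6% of all probe sets), with a median of 0.07. An adjusted p existed for 9 of the 16, and none of these passed. Only 10 of the 16 had a mean above the median of all values. Vamp3 (cellubrevin of recycling endosomes, which brings membrane to the phagocytic cup) read 8.40, 8.02, 8.37, 8.58 and 8.33 in control macrophages and 8.60, 8.10, 8.51, 8.70 and 8.41 in mye-macrophages. Vamp8 (endobrevin of late endosomes) read 8.63, 8.65, 8.60, 8.42 and 8.70 against 8.68, 8.67, 8.68, 8.56 and 8.78. Both lay above control in 5 of 5 pairs, by 0.12 and 0.07 on average, with overlapping groups and no call (limma adjusted p = 0.317 for Vamp3, while Vamp8 was outside the variance filter). Vamp7, the lysosomal R-SNARE, had a difference of -0.07. Vamp4 of the trans-Golgi had differences of 0.25 and 0.09, and Vamp5, the member with the largest positive difference, 0.28 with 1398840_at (limma adjusted p = 0.165) and 0.05 and -0.01 with its other sets. Sec22b of the endoplasmic reticulum had -0.13 and -0.14. The synaptic members Stx1a, Vamp1 and Vamp2 had differences of 0.03 to 0.13, and none of their sets with an adjusted p passed. Except for 1369974_at of Vamp2, the means of their probe sets lay below the median of all values.

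**Figure D3:**
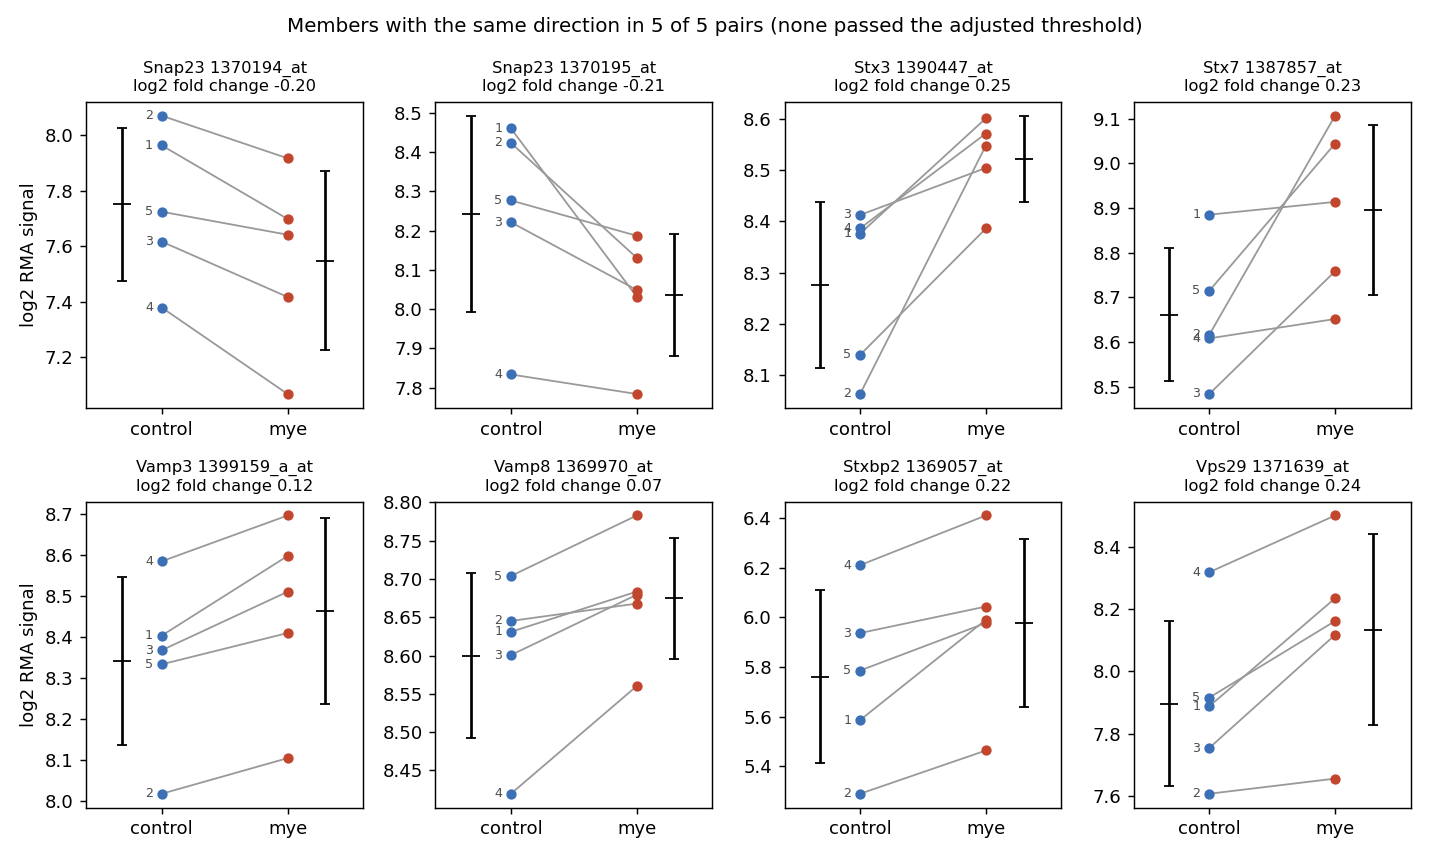
Log2 expression in each sample of 8 probe sets of Snap23 (2 sets), Stx3 (1390447_at), Stx7, Vamp3, Vamp8, Stxbp2 and Vps29, with lines joining samples of the same replicate number (the digits at the control points) and black bars for the mean ± SD of 5 samples. In each panel all 5 lines run the same way, down for Snap23 and up for the others, while the groups overlap. None passed the threshold, and the sets of Stx3 and Vamp8 had no adjusted p. The vertical axes differ between panels.

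The same direction in all 5 pairs was seen for 26 member probe sets, 14 above control (11.1%, beside 6.16% of all probe sets) and 12 below (9.52%, beside 6.59%). The 14 were those of Stx3 (1390447_at), Stx7, Stx8, Stx12 (1384379_at), Vamp2 (1371160_at), Vamp3, Vamp4 (1391494_at), Vamp8, Stxbp2, Vps29, Vps36 (1389191_at), Chmp2a, Vps9d1 and Vps13a. The 12 were both sets of Snap23 and 2 of Vps37b, and those of Nsf (1369690_at), Napa, Napb, Sec22b (1389138_at), Stxbp3, Vps4a (1396462_at), Chmp1a and Vps26a (1382099_at). Other sets of the genes given with a set name did not keep the same direction in all 5 pairs. The brighter set of Stx12, 1370192_at, had -0.07 and lay below control in 4 of 5. Of the 26, the sets of Stx3, Stx8, Stx12, Vamp8 and Napa had no adjusted p, and among the rest Nsf alone passed the test.

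Sec1/Munc18 and syntaxin-binding proteins had a median difference of 0.01 over 14 probe sets of 7 genes. Stxbp2 (Munc18-2, the partner of Stx3 and Stx11 in granule release) read 5.59, 5.29, 5.94, 6.21 and 5.79 in control macrophages and 5.99, 5.46, 6.04, 6.41 and 5.98 in mye-macrophages. It lay above control in 5 of 5 pairs with overlapping groups (log2 fold change 0.22, SE 0.07, limma adjusted p = 0.134). Stxbp3 (Munc18-3, the partner of Stx4) had a difference of -0.13 and lay below control in 5 of 5 pairs (limma adjusted p = 0.327). Vps33a, the Sec1/Munc18 subunit of HOPS, had differences of 0.03 to 0.17 in 5 probe sets, and its relative Vps33b -0.02.

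The tethering and sorting complexes held no probe set past the threshold. An adjusted p existed for 3 HOPS and CORVET sets, 5 GARP and EARP sets and 8 retromer and retriever sets. HOPS and CORVET subunits had a median of 0.04 over 8 probe sets, from -0.16 for Vps39 to 0.13 for Vps16, and GARP and EARP subunits one of 0.01 over 9. Retromer and retriever had a median of 0.05 over 10 probe sets. Vps29, the subunit that retromer and retriever share, read 7.89, 7.61, 7.75, 8.32 and 7.92 in control macrophages and 8.23, 7.66, 8.12, 8.50 and 8.16 in mye-macrophages, above control in 5 of 5 pairs with overlapping groups. Its log2 fold change was 0.24 (SE 0.07, limma adjusted p = 0.117, and 0.0226 with trend and robust). Vps35, the core subunit of retromer, had a difference of -0.04 with a 95% confidence interval of -0.22 to 0.14. Vps26a had -0.17 (limma adjusted p = 0.192, below control in 5 of 5 pairs) with 1382099_at and -0.04 with 1371705_at.

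ESCRT-I and ESCRT-II subunits had a median of 0.04 over 11 probe sets. Vps37b, an ESCRT-I subunit, read 2.12, 2.26, 2.29, 2.01 and 2.28 in control macrophages and 1.55, 2.19, 2.14, 1.75 and 2.03 in mye-macrophages with 1385449_s_at. With 1389081_at it read 5.38, 5.76, 5.45, 5.04 and 5.29 against 5.21, 5.50, 4.82, 4.85 and 5.18. Both sets lay below control in 5 of 5 pairs with overlapping groups (-0.26 and -0.27, limma adjusted p = 0.131 and 0.129), and the third set, 1393852_at, had 0.09. The means of 1385449_s_at and 1393852_at lay below the median of all values, and that of 1389081_at above it. ESCRT-III and Vps4 had a median of 0.02 over 17 probe sets of 12 genes.

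Vps4a, the ATPase that takes ESCRT-III apart, read 4.60, 4.78, 4.46, 4.24 and 4.33 in control macrophages and 3.98, 4.40, 4.43, 3.95 and 4.08 in mye-macrophages with 1396462_at. Its difference of -0.31 (SE 0.09, below control in 5 of 5 pairs, overlapping groups) had the next lowest adjusted p among members after Nsf (limma adjusted p = 0.0973). Its other probe set, 1399014_at, read 7.60, 7.64, 7.57, 7.44 and 7.55 against 7.58, 7.71, 7.53, 7.47 and 7.62, a difference of 0.02 (95% confidence interval -0.12 to 0.17). The charged multivesicular body proteins, Chmp1a to Chmp7, had differences of -0.14 to 0.10. VPS13 lipid transfer proteins had a median of -0.02 over 5 probe sets. Snap91 (a clathrin assembly protein), Vps72 (a subunit of chromatin complexes) and Vps9d1 entered by name only. Of their 4 probe sets 3 had an adjusted p and none passed, with differences of -0.01 to 0.25.

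With eBayes set to trend and robust, 4 members passed (5.88%): Nsf and Snap23 1370194_at lower and Stx7 and Vps29 higher. In the same setting 6.71% of all probe sets passed. Without replicate 3, Nsf, Stx5 1386853_s_at and Vps4a 1396462_at passed as lower (4.29% of members, beside 4.33% of all).

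Other members too had probe sets that gave unlike values. Of the 80 genes, 47 had a single probe set, and of the 33 with several, 15 had differences of both signs. The same count over all genes of the array was not made. None of the 27 within-array comparisons of sets (20 genes) passed, Nsf included, as the smallest adjusted permutation p was 0.214. The widest range was that of Nsf (0.47). Where a gene's sets gave unlike values, its value is uncertain, as for Stx3, Stx5 and Vps4a above, while the 2 sets of Snap23 and the 5 of Vps33a gave like values.

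**Figure D4:**
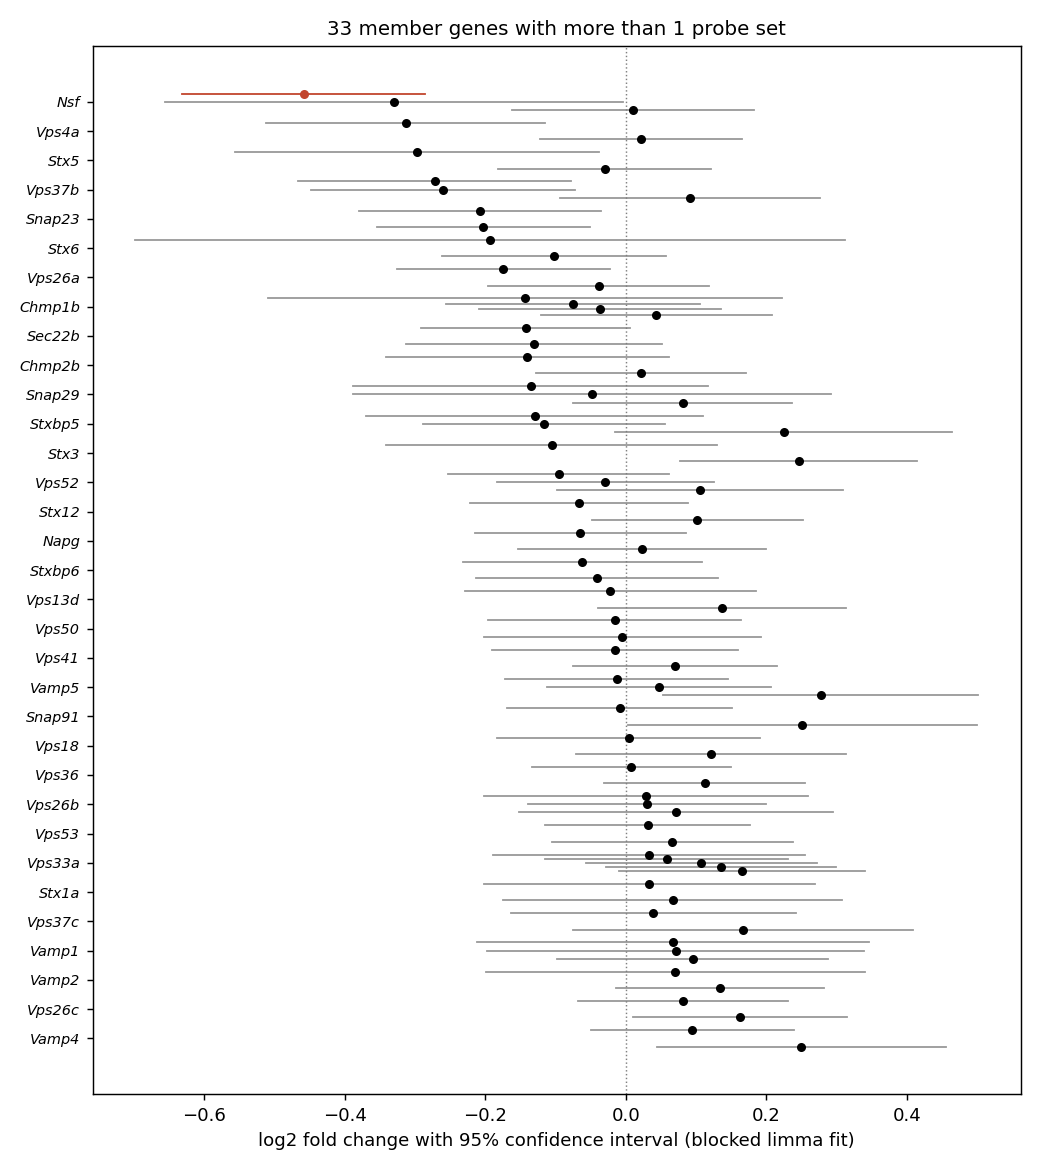
Log2 fold change (mye-macrophages minus control macrophages) with its 95% confidence interval from the blocked limma fit for the probe sets of member genes read by several sets, grouped by gene. The red point is 1369690_at of Nsf, the only one past the threshold; the interval of Nsf 1372528_at lies around 0 and apart from it.

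In most members, as in most probe sets on the arrays, the replicate number took up more of the spread than the myelin treatment did. Its median share of a member's sum of squares was 66%, beside 57.9% over all probe sets, and that of the group was 5.99%, beside 5.79%. These shares stand beside 4 of 9 degrees of freedom (44.4%) for the number and 1 of 9 (11.1%) for the group. The share of the number was the larger one in 118 of 126 member probe sets (93.7%, beside 91.5% of all probe sets). That share was largest for Vps36 1379843_at (98.1%) and Vamp4 1391494_at (97.5%), and it was 96.2% for Sec22b 1389138_at and 89.8% for Vamp3. Nsf 1369690_at (75.4% by group, 17.5% by number) had the largest share by group. Averaged over the groups, replicate number 4 had the highest or the lowest value of the 5 numbers in 69% of members (53.2% of all probe sets), number 2 in 59.5% (54.5%) and number 1 in 13.5% (29.7%).

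**Figure D5:**
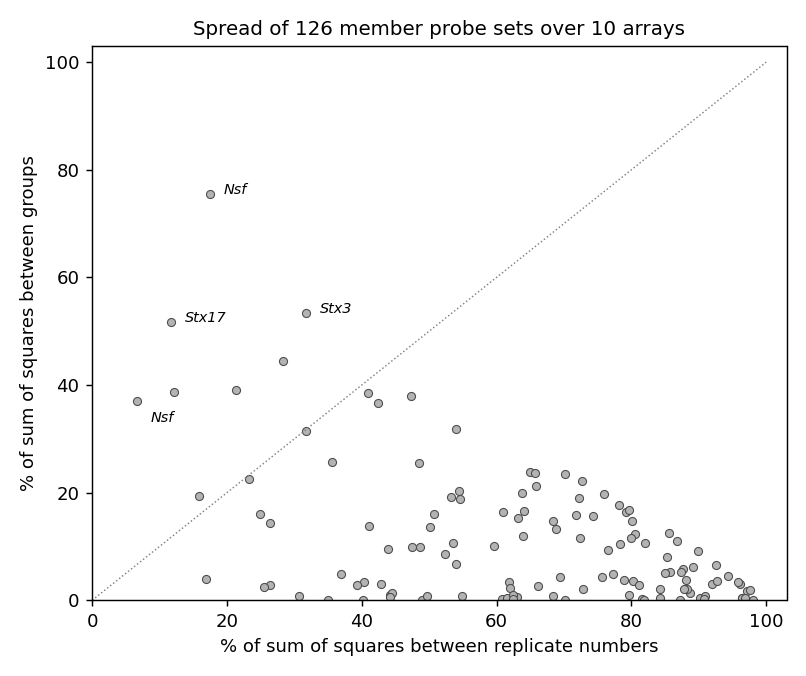
Share of the sum of squares taken up by the replicate number (horizontal axis, percent) and by the group (vertical axis, percent) for each of the 126 member probe sets. Most points lie to the lower right of the dotted line of equal shares (118 of 126), and Nsf 1369690_at is the highest point, with 75.4% by group.

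Genes that work with the members but carry other names were measured by 89 probe sets of 53 genes. Of these, 47 had an adjusted p, and 1 was higher and 1 lower. Over all 15521 probe sets 2.69% passed, 0.792% higher and 1.9% lower. The groups did not overlap for 2 of the 89 sets (beside 0.734% of all probe sets), both higher and both without an adjusted p. These were 1367636_at of Igf2r (0.27), whose other set had -0.19, and the set of Pik3r4 (0.15). Unc13d (Munc13-4, which primes granules and late endosomes for release) was higher by 0.35 with 1370332_at (SE 0.07, 5 of 5 pairs, limma adjusted p = 0.0386). Snx27, a sorting nexin that links cargo to retromer, was lower with 1379804_at (log2 fold change -0.34, SE 0.06, 5 of 5 pairs, limma adjusted p = 0.0325). The other 3 sets of Snx27 had differences of 0.15, -0.19 and -0.41, the last at a limma adjusted p of 0.0572. Neither call remained without the variance filter, without the block, with the block as a random effect or when the beta-actin gap entered the fit, nor when replicate 1, 2, 4 or 5 was left out. No probe set of the related SNAREs and Sec1/Munc18 proteins (19), ESCRT genes (12) or tethers and lipid kinase subunits (22) passed. Only 11, 5 and 12 of these, in that order, had an adjusted p. The median over all 89 was 0.01.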

How the data were processed

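RNA of 10 samples, 5 control macrophages and 5 mye-macrophages by the labels, was hybridized to Affymetrix rat genome arrays. The deposited values are log2 values that the authors made with RMA in the affy package, whose version is not given in the sources used here. They lie between -0.04 and 13.09, and the low array medians (at most 2.35) are not explained there. No depth exists for arrays, and the number of samples limits the precision. After leaving out 57 Affymetrix control probe sets, 31042 probe sets were fitted with limma 3.58.1 (lmFit, eBayes) in R 4.3.3, blocked by replicate number, and p-values were adjusted by Benjamini-Hochberg over the 50% with the larger interquartile range (15521, threshold 0.05). The methods' test was unpaired and is given as an alternative. The numbers pair the samples: deviations from the group means correlated at 0.404 to 0.791 for the same number and at most at 0.279 for other numbers (over the members alone, -0.04 to 0.88 and at most 0.25). The labels give the numbers but not what they stand for.

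Genes were named from the platform annotation, in which 20826 probe sets have 1 symbol, 436 several and 9780 none, and 3 sets with several symbols that include a member's were not used. The members and all gene lists were chosen with earlier results of these data known. Named were Nsf, genes called or with groups that did not overlap, the brightest gene and the genes with the largest and smallest difference of each role, and SNAREs of phagosomes and secretion, as well as genes in counts or lists, chosen after their values were seen. The related genes and cell type markers are separate lists. Alternatives were no block, a random block, no filter, array medians set equal, quantile normalization, trend and robust in eBayes, array weights, the beta-actin gap as a covariate, the methods' unpaired test and leaving out each replicate number. The fit was tested on simulated data. Promoter windows are from RefSeq (GRCr8), read with Python 3.11.15 and pandas 2.3.3, and figures were drawn with matplotlib 3.10.9.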

Additional observations from a re-analysis of the deposited data

Results flagged for a closer look

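In 8 of 120 groups of 5 samples (60 named probe sets in 2 groups each), the highest or lowest sample stood apart from the other four by more than 0.71 of the group's whole range, which is Dixon's limit, and chance gives about 1 in 20. Stx6 1388556_at was low in replicate 2 of both groups, at 7.27 in control macrophages and 6.97 in mye-macrophages. Vps37a was low in mye-macrophage replicate 2 (7.41), and Vps41 1397512_at was high there (1.99, a value below the median of the arrays). Vps26a 1382099_at was low in mye-macrophage replicate 4 (7.80). Vps16 was high in control replicate 4 (6.51) and in mye-macrophage replicate 1 (6.66), and Vps37b 1393852_at was high in mye-macrophage replicate 1 (1.12). No sample of Nsf, Snap23, Stx7 or Vps29 stood apart in this way.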

How the results depend on the processing

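Over all probe sets the counts of 123 higher and 295 lower became 0 and 0 with no replicate block (1385 at an unadjusted p under 0.05) and 0 and 0 with the methods' t-test (1437), 39 and 89 with no variance filter, 387 and 654 with trend and robust, 4 and 7 with the number as a random block, and 6 and 10 with the beta-actin gap entered as a covariate. Leaving out each replicate number gave 11 to 141 higher and 20 to 531 lower. Member calls of 0 higher and 1 lower became 2 and 2 with trend and robust. The lower count became 0 with no replicate block (7 members at an unadjusted p under 0.05), the methods' t-test (4), the random block and the covariate. It was 0 to 3 when replicate numbers were left out, with 0 to 0 higher. The 2 related calls became 0 under no block, no filter, the random block, the covariate and the methods' t-test, 7 with trend and robust, and 0 to 3 by replicate number left out. The median difference of the members (0.0262) stayed above 0 in every alternative, at 0.0407 with the covariate and 0.0152 to 0.0340 by replicate number left out (0.0166 without replicate 4, 0.0152 without replicate 5). No block, the random block, no filter, trend and robust and the methods' t-test leave every fold change as it is, so the median could not move there. By pair the member median was -0.005, -0.020, 0.061, 0.036 and 0.043 in replicates 1 to 5. The SD over pairs (0.034) was larger than the median difference itself. The difference in the beta-actin gap (0.27) stayed above 0, from 0.13 without replicate 1 to 0.39 without replicate 3.

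Of 840 values of single named probe sets under alternatives, 793 kept direction and side of the threshold. This count was largely set in advance. In the alternatives that leave every fold change as it is, no direction could change. Apart from 1369690_at of Nsf, no named probe set had passed in the main fit, so none of the others could lose a call. With the covariate these changed sign: Chmp5 1367512_at 0.0155, Stx3 1369308_at 0.0465, Snap29 1369316_s_at 0.0308, Stx6 1369568_at 0.27, Vamp7 1370098_at 0.0341, Snap29 1370766_at 0.0843, Vps35 1372806_at 0.0747, Stxbp5 1374957_at 0.0025, Vamp5 1377989_at 0.0172, Vps37b 1393852_at -0.0237, Vps41 1397512_at 0.0694 and Vps50 1398371_at 0.0867. Quantile normalization turned Vps52 1369667_at 0.0033, and array weights turned Vps50 1396258_at 0.0252 and Vps50 1398371_at 0.00050. By replicate number left out the values crossed 0 for Chmp5 1367512_at (-0.0639 to 0.0118), Vps52 1369667_at (-0.0574 to 0.0018), Snap29 1370766_at (-0.24 to 0.0429), Vps26a 1371705_at (-0.073 to 0.0012), Nsf 1372528_at (-0.0175 to 0.0768), Vps35 1372806_at (-0.0835 to 0.0242), Vps37a 1374472_at (-0.0366 to 0.0365), Vamp5 1377989_at (-0.0493 to 0.0163), Vps13d 1393076_at (-0.10 to 0.0627), Vps50 1396258_at (-0.0693 to 0.0792), Vps41 1397512_at (-0.0787 to 0.031) and Vps50 1398371_at (-0.0599 to 0.0512). The cause was not tested. No detection calls were used, so the signal over background of single probe sets is not known here.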
